A study of Rattus norvegicus with 6 samples.

Results

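Hypoxia-inducible factor 1 (HIF-1) is the transcription factor through which cells respond to low oxygen, and 5 genes of that response were followed here: Hif1a (ENSRNOG00000008292), Vegfa (ENSRNOG00000019598), Slc2a1 (ENSRNOG00000007284), Hk2 (ENSRNOG00000006116) and Ldha (ENSRNOG00000013009). They were taken by gene ID from the 30562 IDs of the count table, and all 5 were among the 15581 genes with enough counts to be tested. The pairing of these IDs with symbols came with the definition of the set, since the deposited tables carry IDs alone. The samples were facial nerve tissue of wild type rats, 14 days after facial nerve injury: 3 libraries of the injury model (FNI), and 3 in which the injury was followed by C-Gel-light. The title of the series describes that treatment as a Chlorella hydrogel, holding a green alga, that makes oxygen when lit. No library is labelled as gel without light, light alone or uninjured nerve. The effects of gel, alga, light and oxygen therefore cannot be told apart here. Strain, age and sex were not given, and nothing in the labels states that the libraries of a group are separate animals, so the tests measure the spread between libraries, which may be technical. Each library has a batch number of its own, which cannot be told apart from the sample or, across groups, from the treatment.

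The protein made from Hif1a is hydroxylated and degraded while oxygen is present, and it builds up when oxygen is short. It then pairs with a stable partner, binds DNA at a short core sequence and raises genes for glucose uptake, glycolysis and blood vessel growth. Because that control acts on the protein, the amount of Hif1a RNA is not a measure of HIF-1 activity, and the 4 target genes are also driven by other signals. In peripheral nerve, glycolysis in Schwann cells, in the perineurium and in invading macrophages is part of the metabolism of injury and repair.

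None of the 5 genes passed the test between treated and untreated nerve. By the quasi-likelihood test of edgeR with an adjusted p under 0.05, 0 of 5 were called, while 14.8% of all tested genes were called (2301 of 15581). The largest difference was in Slc2a1, the glucose transporter GLUT1, whose mean was 1.81-fold higher with C-Gel-light at an adjusted p of 0.06. Hk2 was 0.734-fold of its FNI level, Ldha was 1.17-fold, and Hif1a and Vegfa were 0.914-fold and 0.931-fold. Of the 5 log2 fold changes 2 were above 0 and the median was -0.10, beside a median of -0.01 over all tested genes, of which 48.8% were above 0. The 5 estimates therefore did not share a sign. Only the 95% interval of Slc2a1 lay off 0, and the sign of Ldha depended on the scaling, so a shared direction was neither shown nor excluded. At an unadjusted p under 0.05, 1 of 5 (Slc2a1) passed, against 32.4% of tested genes. DESeq2 called 1 of 5, again Slc2a1, against 23.2% of tested genes. The limma-voom fit called 0 of 5, against 2264 of 15581 tested genes.

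**Figure D1:**
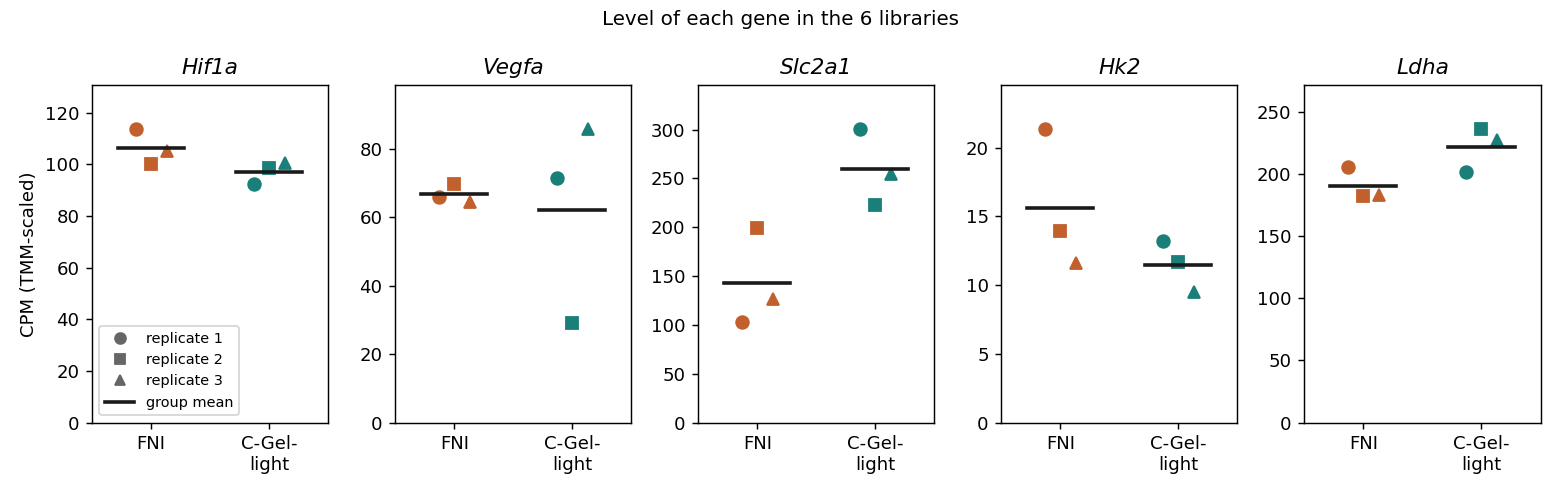
CPM (counts scaled to a common library size with TMM factors, axes from 0) of each gene in the 3 FNI and 3 C-Gel-light libraries, with the group mean as a bar and the replicate number as the symbol. With this scaling only Slc2a1 of the members has groups that do not overlap, beside 39.1% of all tested genes. The low Vegfa value of 29.2 CPM is C-Gel-light replicate 2.

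The promoters of the members are shown because HIF-1 binds the letters ACGTG or GCGTG. Windows of 300 bases, from 250 before the annotated start to 50 bases from it on, were available for all 5 genes from RefSeq on the build GRCr8, which is not the build of the counts, mRatBN7.2. The 3 windows with a match, of Slc2a1 (chr5:138002272-138002571, plus strand), Ldha (chr1:106507842-106508141, plus strand) and Hif1a (chr6:98359648-98359947, plus strand), and 1 without, of Hk2 (chr4:116841226-116841525, minus strand), are printed 5′ to 3′ on the strand of the gene. Capitals mark every match of either motif on either strand, so CACGT and CACGC are matches on the opposite strand.
Slc2a1: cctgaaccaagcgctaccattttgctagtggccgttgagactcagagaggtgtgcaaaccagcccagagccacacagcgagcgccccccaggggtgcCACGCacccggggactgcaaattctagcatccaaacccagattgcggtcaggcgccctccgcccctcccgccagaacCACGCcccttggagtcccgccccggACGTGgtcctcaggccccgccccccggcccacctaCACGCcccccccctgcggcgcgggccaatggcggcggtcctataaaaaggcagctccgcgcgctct
Ldha: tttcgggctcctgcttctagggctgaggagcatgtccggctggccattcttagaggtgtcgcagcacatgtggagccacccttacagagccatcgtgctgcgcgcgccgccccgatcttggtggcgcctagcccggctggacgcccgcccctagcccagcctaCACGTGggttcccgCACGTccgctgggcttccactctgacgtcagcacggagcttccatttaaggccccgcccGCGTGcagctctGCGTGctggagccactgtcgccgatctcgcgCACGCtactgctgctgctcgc
Hif1a: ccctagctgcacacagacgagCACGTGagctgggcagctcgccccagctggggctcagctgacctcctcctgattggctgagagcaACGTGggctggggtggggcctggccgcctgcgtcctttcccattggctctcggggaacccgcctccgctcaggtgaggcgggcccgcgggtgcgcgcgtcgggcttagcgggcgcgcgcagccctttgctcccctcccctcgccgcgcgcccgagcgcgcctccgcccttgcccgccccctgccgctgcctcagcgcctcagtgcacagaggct
Hk2: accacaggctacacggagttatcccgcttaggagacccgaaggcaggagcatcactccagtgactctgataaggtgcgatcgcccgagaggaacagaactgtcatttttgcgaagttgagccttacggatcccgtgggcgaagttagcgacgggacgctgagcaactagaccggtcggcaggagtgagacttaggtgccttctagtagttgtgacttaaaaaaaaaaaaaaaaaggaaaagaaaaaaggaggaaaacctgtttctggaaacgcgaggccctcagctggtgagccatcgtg
The Slc2a1 window held 1 match of ACGTG and 3 of GCGTG, and the Ldha window held 3 and 3. One pair of the Ldha matches is the palindrome CACGTG read on both strands. The Hk2 window held 0 matches, as did both windows of Vegfa, which has 2 annotated starts in the table. The Hif1a window held 3 matches of ACGTG, of which 2 are again 1 palindrome, and 0 of GCGTG. Over 33469 windows of the same length in the table, 19.3% held ACGTG, 29.7% held GCGTG, 41.6% held either and 0.63% held at least 6 matches. The share of G and C was 68.3% in the window of Slc2a1, 66.7% in Ldha, 73.7% in Hif1a, 63.3% and 57.3% in the windows of Vegfa and 51% in Hk2, beside a median of 51.7% over all windows. Whether matches go with the response to treatment was not tested. A match is a stretch of letters and not a measured binding site, and a window without one says nothing of sites elsewhere.

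**Figure D2:**
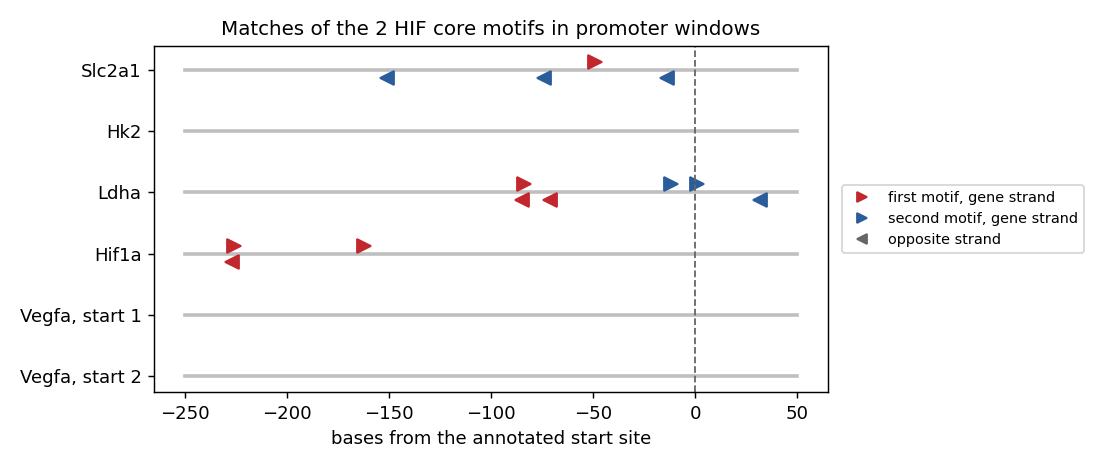
Places of the motif matches in the promoter windows, in bases from the annotated start site (x axis), with 1 line per window; red marks ACGTG, blue GCGTG, and the direction of the triangle gives the strand. Slc2a1 has 4 matches, Ldha 6 and Hif1a 3, while the lines of Hk2 and Vegfa are empty.

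Hif1a encodes the oxygen-regulated subunit of HIF-1. In the FNI libraries it was found at 114, 100.03 and 105 CPM in replicates 1 to 3, in counts scaled to a common library size (CPM, with TMM factors), from 3178, 2442 and 2747 counts. In the C-Gel-light libraries it was found at 92.3, 98.7 and 100.4 CPM, from 2318, 2426 and 2470 counts. All 3 treated libraries lay below the FNI mean, and the groups overlapped by less than 1 CPM, between C-Gel-light replicate 3 and FNI replicate 2. The means were 97.1 ± 4.24 and 106 ± 6.88 CPM (SD, n = 3 per group). On the log2 scale the difference was -0.13 ± 0.09 (SE), with an edgeR adjusted p of 0.34 and a 95% interval of 0.794-fold to 1.05-fold. The gene was steady within groups: 90.5% of tested genes varied more among the C-Gel-light libraries and 73.7% more among the FNI libraries.

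The Hif1a result depended on how libraries were scaled. The TMM factors, which correct for differences in library composition, were 0.866 to 0.983 with C-Gel-light and 1.05 to 1.14 in FNI. With library totals alone the median log2 fold change of all tested genes moved to -0.26. Hif1a was then -0.38 and was called lower (adjusted p = 0.048 by edgeR), as was Hk2 at -0.70 (adjusted p = 0.0498), so 2 of 5 members were called beside 25.3% of all genes. Values in FPKM (counts divided by gene length and library total) carry the same scaling, and with a pseudocount of 0.1 limma called Hif1a alone of the 5, at -0.38 (adjusted p = 0.0496), beside 24% of all genes. In FPKM the Hif1a values were 33.2, 28.5 and 32.3 in FNI and 21.6, 24.1 and 26.7 with C-Gel-light, which did not overlap. In the same unit 48.6% of tested genes did not overlap.

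Vegfa encodes the main growth factor for blood vessels and is a direct target of HIF-1. FNI replicates 1 to 3 gave 66.1, 69.8 and 64.5 CPM. C-Gel-light replicates 1 to 3 gave 71.5, 29.2 and 85.9 CPM. The FNI libraries were nearly equal, 2 of the treated libraries lay above all of them, and 1 lay far below. The means were 62.2 ± 29.5 CPM with C-Gel-light and 66.8 ± 2.72 CPM in FNI (SD, n = 3 per group), a log2 difference of -0.10 ± 0.35 (SE) with an edgeR adjusted p of 0.86. The interval of 0.524-fold to 1.65-fold is the widest of the 5, and it allows a fall or a rise of over 1.5-fold.

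Most of that spread lay in C-Gel-light replicate 2. Its 718 Vegfa counts have a 95% Poisson interval of 27.1 to 31.4 CPM, which covers counting error only, and it lay 2.45-fold below the nearer library of its group. Only 284 tested genes (1.82%) were as far or farther below in that library. Only 5.15% of tested genes varied more than Vegfa among the C-Gel-light libraries, while 87.2% varied more among the FNI libraries. Without replicate 2 the direction turned: the log2 difference was 0.24 ± 0.11 (SE) with an edgeR adjusted p of 0.20, and replicates 1 and 3 averaged 1.18-fold of the FNI mean. What set this library apart for Vegfa was not tested.

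Slc2a1 encodes GLUT1, which carries glucose into cells. FNI replicates 1 to 3 gave 103, 199 and 126 CPM, from 2891, 4858 and 3305 counts. C-Gel-light replicates 1 to 3 gave 301, 223 and 255 CPM, from 7549, 5478 and 6265 counts. Every treated library lay above every FNI library, a separation found for 39.1% of all tested genes, and FNI replicate 2 was close to the treated range. The means were 259 ± 39.2 and 143 ± 49.9 CPM (SD, n = 3 per group). An exact permutation test of the means, two-sided, gave p = 0.1, the lowest value within reach of groups of 3. On the log2 scale the difference was 0.86 ± 0.25 (SE), with an edgeR adjusted p of 0.06 and a 95% interval of 1.21-fold to 2.72-fold that is not adjusted for the number of genes tested. A larger fold change in either direction was found for 15.5% of tested genes.

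Whether Slc2a1 was called turned on the tool, the threshold and 1 library. DESeq2 gave 0.88 (adjusted p = 0.0048), limma-voom 0.90 (adjusted p = 0.051), and at an adjusted p under 0.1 by edgeR it was the 1 member of 5 called, beside 24.9% of all genes. Without FNI replicate 2 the log2 difference was 1.18 ± 0.18 (SE) with an edgeR adjusted p of 0.018, again the only member of 5 called, beside 10.8% of the genes tested then. Leaving out any other single library gave 0.67 to 0.96, with edgeR adjusted p of 0.096 to 0.17. Each of these was above the 0.06 of the fit to all libraries. On the first principal component of all tested genes, which held 57.5% of the variance, FNI replicate 2 was the untreated library nearest to the treated ones. Its score was -27.5, against -50.1 and -58.7 in the other FNI libraries and 37.4 to 51.8 with C-Gel-light. Whether that position bears on Slc2a1 was not tested. Over the alternatives tried, Slc2a1 ran from 0.61 to 1.18 on the log2 scale and was above 0 in all 17.

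Hk2 encodes hexokinase 2, which traps glucose in the cell by adding a phosphate as the opening step of glycolysis. FNI replicates 1 to 3 gave 21.3, 13.9 and 11.6 CPM, from 597, 340 and 304 counts. C-Gel-light replicates 1 to 3 gave 13.2, 11.7 and 9.51 CPM, from 332, 288 and 234 counts. All 3 treated libraries lay below the FNI mean, but 2 of them lay above FNI replicate 3. The means were 11.5 ± 1.87 and 15.6 ± 5.08 CPM (SD, n = 3 per group). Its log2 difference was -0.45 ± 0.25 (SE), with an edgeR adjusted p of 0.25 and a 95% interval of 0.492-fold to 1.10-fold. FNI replicate 1 carried much of the difference, which was -0.15 (adjusted p = 0.65 by edgeR) without it.

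Ldha encodes the lactate dehydrogenase subunit that turns pyruvate into lactate at the end of glycolysis. FNI replicates 1 to 3 gave 205, 182 and 183 CPM. C-Gel-light replicates 1 to 3 gave 202, 236 and 228 CPM. The groups overlapped through FNI replicate 1 and C-Gel-light replicate 1, and the other treated libraries were above all FNI values. The means were 222 ± 17.99 and 190.2 ± 13.04 CPM (SD, n = 3 per group), with a log2 difference of 0.22 ± 0.11 (SE), an edgeR adjusted p of 0.19 and a 95% interval of 0.982-fold to 1.38-fold. With library totals alone it was -0.027 (adjusted p = 0.89 by edgeR), while RLE and upper quartile factors gave 0.24 and 0.20, so its direction rested on correcting for library composition.

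**Figure D3:**
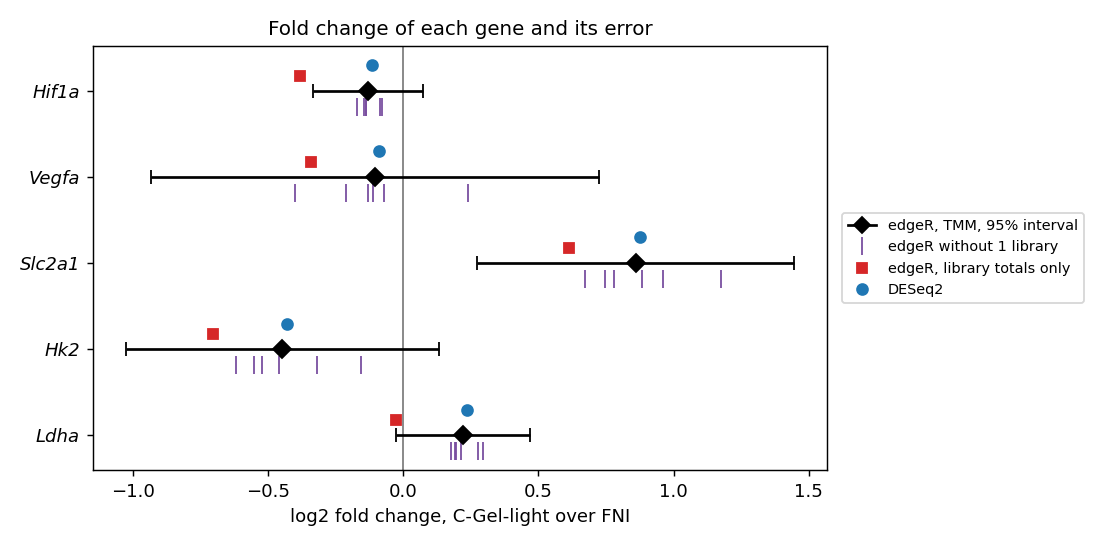
Log2 fold change of each gene, C-Gel-light over FNI (x axis), with the 95% interval of the edgeR fit as a bar, the fits without 1 library as ticks, library totals as squares and DESeq2 as circles. The interval is above 0 for Slc2a1 and spans 0 for the other 4 genes, and 1 tick of Vegfa, at 0.24, lies on the other side of 0.

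Levels of different genes were compared in FPKM. In FNI, Ldha had the highest mean at 75.02 ± 5.52, followed by Slc2a1 at 58.4 ± 18.8, Hif1a at 31.4 ± 2.53, Vegfa at 19.4 ± 0.296 and Hk2 at 4.61 ± 1.44 FPKM (SD, n = 3). With C-Gel-light the first place was held by Slc2a1 at 89.3 ± 11.9, followed by Ldha at 73.7 ± 9.34, Hif1a at 24.1 ± 2.52, Vegfa at 15.3 ± 7.79 and Hk2 at 2.83 ± 0.287 FPKM (SD, n = 3). The ranges of Slc2a1 and Ldha overlapped in both groups, so their order was not beyond the spread. The ranges of Hif1a and Vegfa were apart in FNI and overlapped with C-Gel-light. Within every library Hif1a was above Vegfa, by 1.45-fold to 1.74-fold in FNI and by 1.19-fold to 3.43-fold with C-Gel-light. Hk2 was below the other members in every library.

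**Figure D4:**
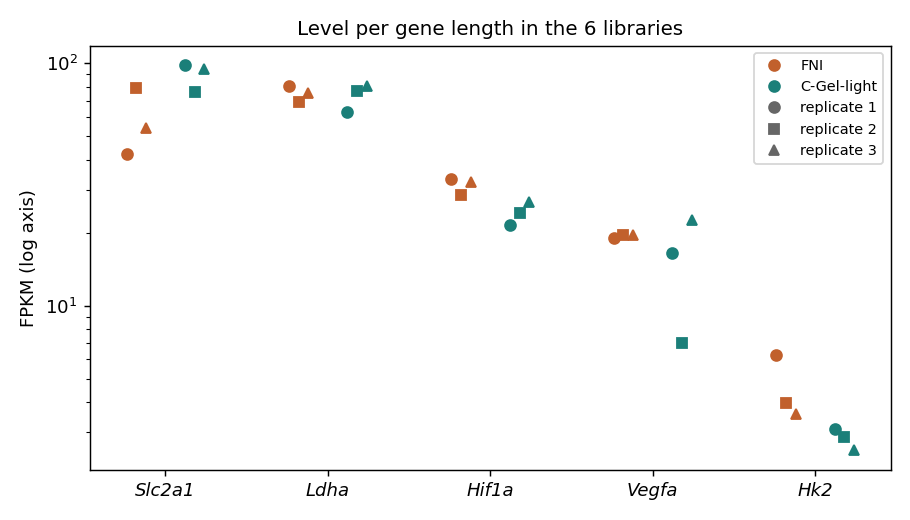
FPKM of each gene in each library on a log axis, with FNI in orange and C-Gel-light in teal. Hk2 lies lowest, between 2.53 and 6.26 FPKM, and the ranges of Slc2a1 and Ldha overlap.

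The ratio of 2 genes within a library does not change with the scaling between libraries, and it was computed for all 10 pairs of members after the values were seen. Groups did not overlap in 4 of 10 pairs, beside 39.2% of all pairs of tested genes with a count in every library, so the share among the members was near the background. In each of the 4 the two-sided exact permutation p, on log2 ratios, was 0.1, the smallest possible. Adjusted over the 10 pairs by Benjamini-Hochberg it was 0.25. The fold changes of ratios given below come from the group means of the log2 ratios, so they differ from the quotient of the plain means drawn as bars.

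The ratio of Hif1a to Ldha, in FPKM, was 0.414, 0.411 and 0.428 in FNI replicates 1 to 3 and 0.342, 0.312 and 0.330 in C-Gel-light replicates 1 to 3. Both groups were tight, and the treated ratio was 0.785-fold of the untreated one. The ratio of Slc2a1 to Hk2, the transporter to the enzyme that acts next, was 6.73, 19.9 and 15.1 in FNI and 31.6, 26.4 and 37.2 with C-Gel-light, or 2.49-fold higher. Taken alone, Slc2a1 separated the groups with TMM factors but not in FPKM, and Hk2 in FPKM but not with TMM factors. Of all tested genes, 39.1% separated the groups with TMM factors and 48.6% in FPKM. Slc2a1 was in the other 2 separated pairs as well. Hif1a to Slc2a1 was 0.489-fold and Vegfa to Slc2a1 0.451-fold of the FNI ratio.

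**Figure D5:**
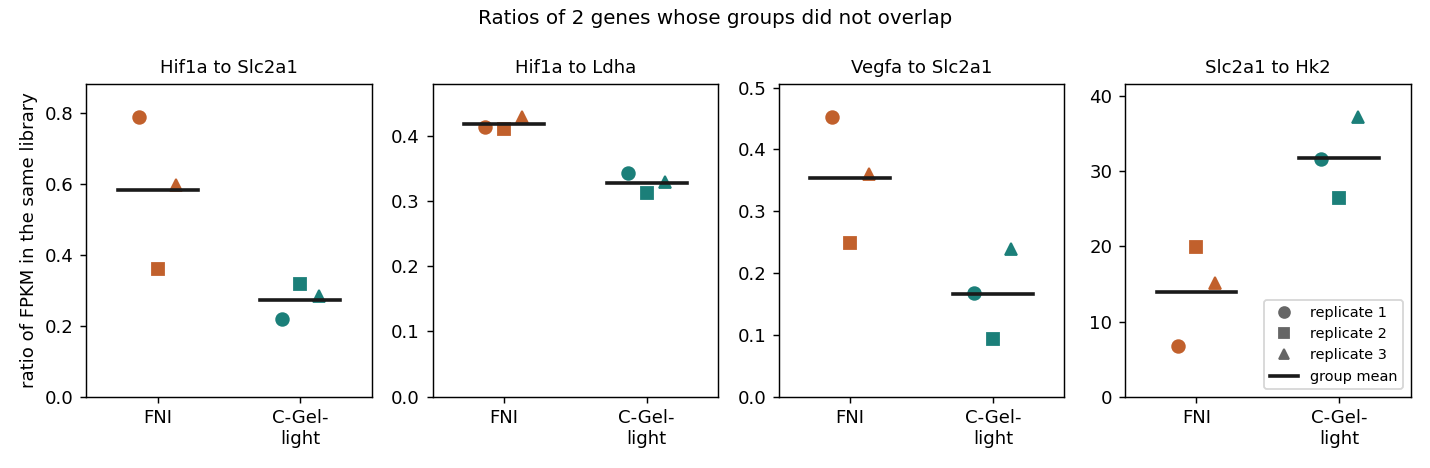
Ratios of the FPKM of 2 genes in the same library (y axes from 0) for the 4 of 10 pairs whose groups did not overlap, with the group mean as a bar and the replicate number as the symbol. Slc2a1 to Hk2 runs from 6.73 to 19.9 in FNI and from 26.4 to 37.2 with C-Gel-light.

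For each member the gene with the most similar profile was sought by Pearson correlation of log2 CPM over the 6 libraries, among 13230 genes averaging 1 or more in log2 CPM. With 6 libraries in 2 groups and so many genes, high values are found by the search itself, and 54 (Hk2) to 386 (Slc2a1) genes had r above 0.9. The closest to Slc2a1 was ENSRNOG00000004198 (r = 0.997), at 50.8 CPM with C-Gel-light and 35.3 CPM in FNI. The closest to Ldha was ENSRNOG00000065363 (r = 0.996), at 2.56 and 1.31 CPM. The closest to Vegfa was ENSRNOG00000002191 (r = 0.993), at 3.94 and 4.14 CPM, and the closest to Hif1a was ENSRNOG00000047531 (r = 0.988), at 8.12 and 12.6 CPM. None of these 4 was called by edgeR (adjusted p = 0.076, 0.10, 0.86 and 0.18).

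Totals ran from 22957382 to 28997855 counts per library. Other genes of the pathway (the HIF hydroxylases, other glycolytic enzymes, VEGF receptors) and the markers of Schwann cells, macrophages, endothelium, muscle and other cell types had been listed by symbol, and were not analysed here because the names in the RefSeq table could not be matched to the Ensembl IDs. The labelled tissue was thus not checked against its markers, and whether cell composition moves with the values above was not tested. In whole tissue, fewer cells of a type and less RNA per cell cannot be told apart.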

How the data were processed

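For each library the authors deposited raw counts by Ensembl ID, in whole numbers, and FPKM values. Poly(A) RNA was selected with oligo(dT) beads, per the labels' protocols. The build mRatBN7.2 and the tools RSEM 1.2.29, STAR 2.4.2a, edgeR 3.28.1, fastp 0.22.0 and FastQC 0.11.9 are listed per the submitters' processing notes, without roles. If RSEM made the counts, they are rounded estimates. The deposited FPKM equals the count divided by the library total and a whole-number gene length (within 0.01) for at least 99.99% of values, so both hold one measurement.

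Counts were fitted over all genes with edgeR 4.0.16 in R 4.3.3 (filterByExpr at its minimum count of 10, TMM factors, robust quasi-likelihood F test, group as the only term, Benjamini-Hochberg adjusted p under 0.05). The SE is the log2 fold change divided by the square root of F. The script was tested on simulated data in which a small share of genes changed, as many up as down. That simulation does not test the choice of scaling. DESeq2 1.42.0, limma 3.58.1, other scalings and filters, and leaving out each library were alternatives. Genes named are the 5 members and, for each, its most similar gene, of which at most 2 IDs per direction are printed because names could not be matched. Members and lists were chosen with earlier results of these data known. No libraries of a group agreed within counting noise (chi-square per degree of freedom 27.0 to 175).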

Additional observations from a re-analysis of the deposited data

How the results depend on the processing

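Against 0 of 5 members called, DESeq2, FPKM with a pseudocount of 0.1 and an adjusted p under 0.1 gave 1, library totals gave 2, and leaving out 1 library gave 0 to 1. Over all genes, 2301 were called (1101 higher, 1200 lower), against 3618 with DESeq2, 3876 at an adjusted p under 0.1, 3937 with library totals (645 higher, 3292 lower), 3654 (615 and 3039) and 3741 (632 and 3109) with FPKM at pseudocounts of 1 and 0.1, and 797 to 1726 without 1 library. Slc2a1 passed with DESeq2 (0.88) and without FNI replicate 2 (1.18), Hif1a with library totals (-0.38) and FPKM at 0.1 (-0.38), and Hk2 with library totals (-0.70). Ldha changed sign with library totals (-0.027) and with FPKM at pseudocounts of 1 (-0.031) and 0.1 (-0.032), and Vegfa without C-Gel-light replicate 2 (0.24). Without 1 library, the log2 fold changes ran from -0.17 to -0.08 for Hif1a, -0.40 to 0.24 for Vegfa, 0.67 to 1.18 for Slc2a1, -0.62 to -0.15 for Hk2 and 0.18 to 0.29 for Ldha. The causes were not tested beyond the scaling and the libraries named.

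With the replicate number as a block, 1999 genes and 0 members were called (Hif1a -0.13, Vegfa -0.23, Slc2a1 0.91, Hk2 -0.41, Ldha 0.22). Same-numbered libraries did not deviate together across genes (correlations of -0.06, 0.03 and 0.09). The labels do not state whether the numbers pair libraries, and low correlations across genes cannot exclude it. For Hk2 the block lowered the SE from 0.25 to 0.15, with an edgeR adjusted p of 0.13. The SE rose for Hif1a, Vegfa, Slc2a1 and Ldha. The alternatives for the pathway lists were not run, since no ID could be given a name. The smallest count of a member in any library was 234 (Hk2).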
